A study of Mus musculus with 8 samples.

Results

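The 37 genes described here carry out antigen presentation and costimulation: major histocompatibility complex (MHC) class I and class II chains, the genes that supply and load their peptides, costimulatory and checkpoint proteins, and 3 genes used to mark dendritic cells. They were chosen by name, with earlier results of these data known, and were found through the transcript that each gene probe was designed for. All 37 had a probe, and they made up 37 of the 20738 features tested (14493 named genes and 6245 probes without a name). Their 46 probes all passed the filter on dim signal, and the probe that stood for each gene was well above background on all 8 arrays, so no member entered the tests through 1 group alone.

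The samples were macrophages isolated from male mice given lipopolysaccharide (LPS), either wild-type (WT, 4 arrays) or lacking EP2 (EP2KO, 4 arrays), the prostaglandin E2 receptor encoded by Ptger2. Total RNA was labelled with Cy3 and each sample was hybridised to 1 Agilent array. The sources used here do not give strain, age, LPS dose and time, the site the cells came from or whether each array held a separate animal. The p-values therefore measure the spread between these samples, which may be technical. No untreated sample was analysed here, so no value below measures an effect of LPS.

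Hybridisation used 2 slides, which were scanned on separate days. Slide 1 held WT 1, WT 2, EP2KO 1 and EP2KO 2, and slide 2 held the other 4. WT took positions 1 and 2 and EP2KO positions 3 and 4 on either slide, which means that the position on a slide and the genotype cannot be told apart. Nor can slide, scan day and whatever else differed between the 2 sets of samples. Between 25555 (WT 1) and 32147 (WT 3) of 39429 gene probes were well above background, and the 75th percentile of the signal, the value each array was scaled to, ran from 915 (WT 2) to 1396 (WT 3). No spot was saturated. Levels below are log2 of the processed signal minus that percentile, so that 0 is the level of the 75th percentile. They are compared between arrays for a gene and never between genes.

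The targeted gene was lower on every EP2KO array. As multiples of the 75th percentile, Ptger2 signal was 1.07, 1.21, 0.971 and 1.07 in WT 1 to 4 and 0.390, 0.319, 0.347 and 0.240 in EP2KO 1 to 4. The groups did not overlap, and the difference was -1.76 ± 0.18 (SE, log2, 3.38-fold) with a limma adjusted p of 0.0721 without a block and 0.0413 in the slide-blocked fit. Under the replicate block its adjusted p was 0.225, so it was called in the slide-blocked fit alone of the 3. Whether the probe lies in the deleted part of the gene is not given. Of the macrophage markers, 7 of 8 had a named probe (Adgre1, Csf1r, Itgam, Mertk, Fcgr1, Cd14 and Lyz2), and all 7 were well above background on all arrays.

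MHC class II molecules present peptides from the endosomal pathway to CD4 T cells, and MHC class I molecules present peptides made by the proteasome to CD8 T cells. T cells also need a costimulatory signal, given by proteins such as CD80, CD86 and CD40, and are restrained by checkpoint ligands such as PD-L1. Class II genes are controlled by CIITA, which has no DNA-binding domain of its own and is recruited by factors bound to the X and Y boxes of their promoters. NLRC5, a relative of CIITA, plays that part for class I genes.

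The promoters of 28 of the 37 members were in the RefSeq table of build GRCm38.p6, as windows of 300 bases. Both strands were searched for exact matches to an X box core (AG, any 2 bases, AC, any 2 bases, ATG), a Y box (CTGATTGG), an interferon response element (GAAA, any 2 bases, GAAA) and a kappaB site (GGG, any 2 bases, TT, any base, CC). An X box core was in 6 members (H2-Eb1, H2-DMb1, H2-Oa, H2-Ob, H2-T23 and Psmb10), beside 3.09% of all 32851 windows and 3.57% of 27025 genes. A Y box was in 8 members (H2-Aa, H2-Eb1, H2-Oa, H2-K1, H2-D1, H2-T23, Tap1 and Psmb9), beside 4.1% of windows and 4.7% of genes. Tap1 and Psmb9 lie head to head and share their match. The interferon response element was in 5 members (Ctss, B2m, H2-T23, Psme1 and Erap1; 3.44% of windows) and the kappaB site in 5 (H2-Aa, H2-Oa, B2m, H2-K1 and H2-D1; 4.79% of windows). No 2 different motifs shared a base in a member's window. H2-Eb1, H2-Oa and H2-T23 held both boxes, and 17 of the 28 members held neither.

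The 180 bases before the start site are shown for 7 MHC genes of chromosome 17, each with an X box core or Y box match. They include class II genes that were lower on slide 2 than on slide 1 and class I chains that did not pass the test there. Of the class II loading genes with a promoter window, 3 of 7 held either box. H2-DMb2 (-3.49) and H2-DMa (-1.20), also lower on slide 2, held neither and are not shown. A link between the boxes and the slide difference was not tested. Capitals mark matches to the 4 motifs, read 5′ to 3′ on the strand of the gene, and a match on the other strand appears as its reverse complement.

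H2-Eb1 (class II beta chain, chr17:34305687-34305866, plus strand, X box core then Y box): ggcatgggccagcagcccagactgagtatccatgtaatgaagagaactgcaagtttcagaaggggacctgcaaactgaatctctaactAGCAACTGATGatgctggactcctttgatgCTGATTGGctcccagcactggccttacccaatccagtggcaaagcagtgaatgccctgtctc
H2-Aa (class II alpha chain, chr17:34287824-34288003, minus strand, kappaB then Y box): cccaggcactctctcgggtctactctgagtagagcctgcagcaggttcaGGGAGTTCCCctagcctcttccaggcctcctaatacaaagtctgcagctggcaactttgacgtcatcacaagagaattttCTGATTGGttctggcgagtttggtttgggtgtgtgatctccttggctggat
H2-DMb1 (class II loading, chr17:34153011-34153190, plus strand, X box core): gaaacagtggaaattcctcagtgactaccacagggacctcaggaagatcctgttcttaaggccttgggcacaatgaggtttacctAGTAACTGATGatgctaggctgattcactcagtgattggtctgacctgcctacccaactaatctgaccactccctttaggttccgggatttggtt
H2-Oa (class II loading, chr17:34092199-34092378, plus strand, X box core, Y box, kappaB): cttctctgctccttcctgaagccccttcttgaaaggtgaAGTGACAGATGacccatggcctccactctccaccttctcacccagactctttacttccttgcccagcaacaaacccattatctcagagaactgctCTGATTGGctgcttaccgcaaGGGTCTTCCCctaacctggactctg
H2-Ob (class II loading, chr17:34238725-34238904, plus strand, X box core): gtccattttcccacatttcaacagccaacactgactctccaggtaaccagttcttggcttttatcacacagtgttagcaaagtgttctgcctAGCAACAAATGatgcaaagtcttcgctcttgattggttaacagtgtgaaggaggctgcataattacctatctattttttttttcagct
H2-D1 (class I heavy chain, chr17:35262914-35263093, plus strand, kappaB then Y box): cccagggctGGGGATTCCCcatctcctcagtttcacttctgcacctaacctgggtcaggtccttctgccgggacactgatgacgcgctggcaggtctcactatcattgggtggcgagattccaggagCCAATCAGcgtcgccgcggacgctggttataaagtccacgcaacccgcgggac
H2-T23 (non-classical class I heavy chain, chr17:36032702-36032881, minus strand, interferon response element, X box core, Y box): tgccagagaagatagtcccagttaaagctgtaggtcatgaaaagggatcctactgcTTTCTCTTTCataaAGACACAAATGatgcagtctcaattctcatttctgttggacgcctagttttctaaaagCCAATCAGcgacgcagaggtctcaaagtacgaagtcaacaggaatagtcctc

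The first comparison, EP2KO against WT, is the one the series was designed for. No member passed an adjusted p of 0.05 (limma, Benjamini-Hochberg over all features), where 0.00964% of the 20738 features did: 2 unnamed probes, both higher in EP2KO. The count of members was also 0 in the fit that blocks on slide (4 features, 0.0193%) and in the one that blocks on replicate number (0 features, 0%). At an unadjusted p under 0.05 there were 0 members without a block (1.97% of features), 4 in the slide-blocked fit (7.33%, with 4.65% lower) and 5 under the replicate block (5.46%, with 3.72% lower), and all of those were lower in EP2KO. No member had genotypes that did not overlap, which 1.38% of features had. The median difference over the 37 members was -0.17 (27 below 0 and 10 above), against -0.02 over all features, of which 54.8% were below 0. Leaving out WT 2 moved the members' median to 0.01. With each array scaled to its median instead, the median of all features moved to 0.11 and that of the members to -0.04.

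**Figure D1:**
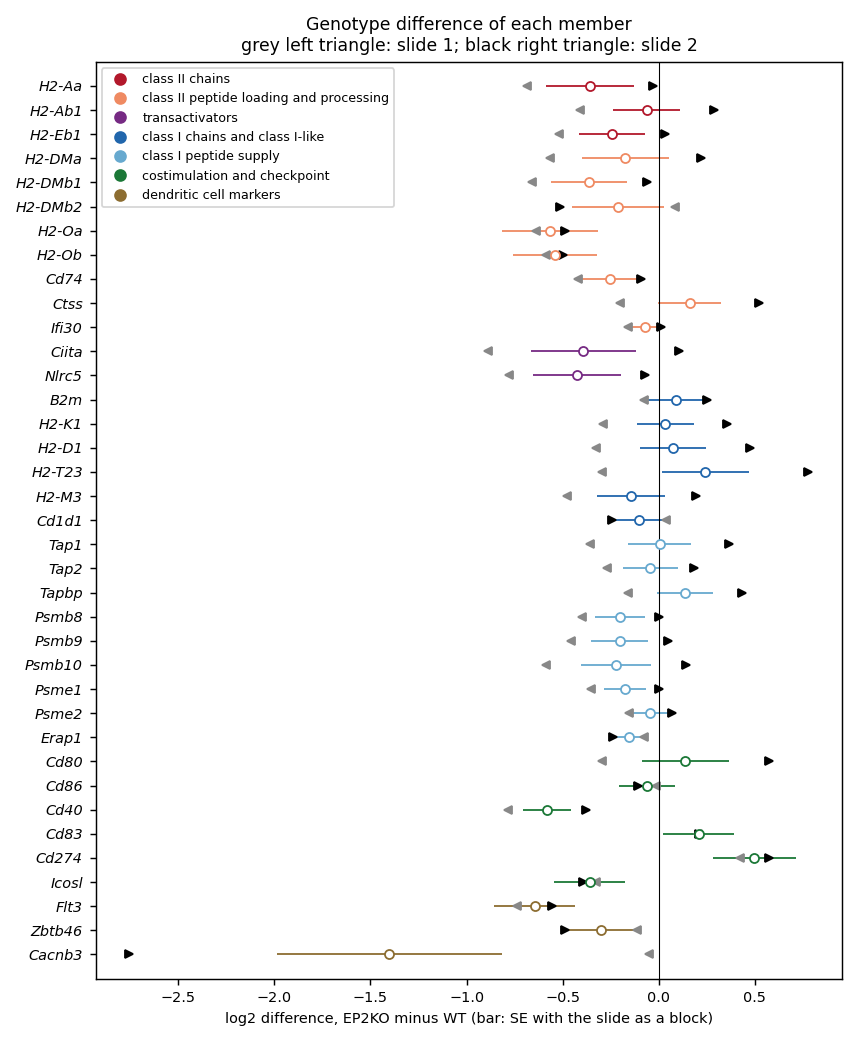
Difference of each of the 37 members between EP2KO and WT (log2, x axis), by role. Open circles give the difference over 4 arrays a genotype, bars its SE with the slide as a block, and triangles the difference on either slide (2 arrays a genotype). On slide 1, 33 of 37 members were below 0 and on slide 2, 16 were, with 14 below 0 on both, of which Cd40, Flt3 and H2-Ob lay below WT without overlap on both. No member passed an adjusted p of 0.05.

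Cd40, the receptor through which helper T cells activate antigen-presenting cells, had the smallest p of the members in the slide-blocked fit. Its level was 2.39 and 2.60 in WT against 1.70 and 1.71 in EP2KO on slide 1, and 1.39 and 1.24 against 0.83 and 1.04 on slide 2. Both EP2KO arrays were below both WT arrays on either slide, while WT of slide 2 lay below EP2KO of slide 1. The difference was -0.58 (1.50-fold lower in EP2KO), with an SE of 0.38 without a block (adjusted p 1.00) and 0.13 with the slide as a block (p 0.00225, adjusted p 0.243). Over 12 slide-blocked settings it ran from -0.67 to -0.45 and never passed the threshold (lowest adjusted p 0.210).

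Flt3, the receptor of a growth factor for dendritic cells, was likewise lower in EP2KO on either slide. Its levels were -0.38 and 0.08 in WT against -0.68 and -1.09 in EP2KO on slide 1, and -1.44 and -1.12 against -2.21 and -1.46 on slide 2. The difference was -0.65 ± 0.21 (SE, slide as a block, adjusted p 0.526). A second Flt3 probe gave -0.40. H2-Ob, a chain of H2-O, had levels of 2.33 and 2.28 in WT against 2.16 and 1.28 in EP2KO on slide 1, and -0.27 and -0.05 against -0.95 and -0.35 on slide 2. That difference was -0.54 ± 0.22 (adjusted p 0.644, slide-blocked). These 3 of 37 were the members lower in EP2KO without overlap on both slides, which 3.96% of features were. No member was higher on both slides in that way (3.27% of features).

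All 7 T-cell markers tested were below 0 in EP2KO over both slides, while 2 of them were above 0 on slide 2. With the slide as a block 5 had an unadjusted p under 0.05, where 4.65% of all features were lower at that p. None passed after adjustment, Cd3g being nearest (-1.49, adjusted p 0.077). The summed T-cell signal was 31.8 and 29.4 times the 75th percentile in WT and 26.8 and 15.8 in EP2KO on slide 1, and 4.78 and 4.64 against 4.71 and 5.34 on slide 2. Neutrophil markers lay lower as well, with 2 of 4 at an unadjusted p under 0.05 in that fit and 0 after adjustment, Cxcr2 being nearest (-1.24, adjusted p 0.230). Their sum was 40.6 and 58.1 in WT against 57.3 and 21.1 in EP2KO on slide 1, and 8.85 and 7.21 against 3.33 and 3.53 on slide 2. Of the B-cell markers, 0 of 10 had such a p, but 8 of 10 lay below WT without overlap on slide 2, as 21.5% of features did. Their sum was 115 and 89.9 against 119 and 71.8 on slide 1, and 11.8 and 15.7 against 7.02 and 11.3 on slide 2. Markers of large peritoneal macrophages lay mostly the other way, with differences from 0.006 to 2.97 over both slides. In the slide-blocked fit 4 of 6 were higher in EP2KO at an unadjusted p under 0.05, as were 556 of 20738 features. After adjustment 0 passed. On slide 2 their differences ran from -1.29 to 2.92, with 5 of 6 above 0. Their sum was 101 and 142 in WT against 143 and 149 in EP2KO on slide 1. On slide 2 it was 15.7 and 10.2 against 13.9 and 18.4. The part of these lists in the differences of Cd40, Flt3 and H2-Ob was not tested. In bulk RNA, fewer cells of a type and less RNA per cell cannot be told apart.

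Among the other costimulatory and checkpoint genes, Cd80 and Cd86, the ligands of CD28 and CTLA-4, did not pass. Cd80 was 2.88 and 3.55 in WT against 2.99 and 2.84 in EP2KO on slide 1, and 2.36 and 2.17 against 2.93 and 2.74 on slide 2. Cd86 was 1.70 and 2.25 against 1.97 and 1.96 on slide 1, and 0.85 and 0.58 against 0.73 and 0.48 on slide 2. In EP2KO Cd80 lay above WT on slide 2 without overlap and overlapped with it on slide 1, and Cd86 overlapped on both slides. Their differences were 0.14 ± 0.29 and -0.06 ± 0.49 (SE, no block), and the SEs were 0.23 and 0.15 with the slide as a block. A second Cd80 probe gave 0.25, with 0.17 on slide 1 where the first gave -0.30.

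Cd274 encodes PD-L1, the ligand of the checkpoint receptor PD-1. It read 0.57 and 0.32 in WT against 0.88 and 0.86 in EP2KO on slide 1, and 0.95 and 1.98 against 2.11 and 1.96 on slide 2. The EP2KO arrays were above WT on slide 1, the 1 member for which this held (16.9% of features), and overlapped WT 4 on slide 2. The difference was 0.50 ± 0.22 (SE, slide as a block, adjusted p 0.689). Icosl, the ligand of the T-cell costimulator ICOS, differed by -0.36 ± 0.18, and Cd83, a maturation marker that stabilises class II and CD86 at the surface, by 0.21 ± 0.19, both with the slide as a block.

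The largest difference among the members belonged to Cacnb3, a calcium channel subunit used to mark dendritic cells, and it came from slide 2. Its levels were -1.81 and -2.70 in WT against -2.62 and -1.99 in EP2KO on slide 1, and -2.59 and -2.08 against -4.65 and -5.53 on slide 2. The difference was -0.05 on slide 1 and -2.75 on slide 2, and -1.40 ± 0.59 over both (slide as a block, adjusted p 0.667). Zbtb46, a transcription factor of conventional dendritic cells, had 2 probes that differed: -0.30 for the brighter and -0.76 for another that was well above background on 6 arrays. On slide 1 these 2 probes gave -0.11 and 0.47. Fibroblast and mesothelial markers moved with Cacnb3 on slide 2. Their summed signal was 119 and 134 times the 75th percentile in WT and 25.8 and 4.06 in EP2KO there, with all 8 probes well above background on all arrays. On slide 1 it ran from 19.6 to 89.3 in WT and from 55.6 to 93.1 in EP2KO. Their part in the Cacnb3 difference was not tested.

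Neither transactivator passed. Ciita, the class II transactivator, was -1.82 and -1.19 in WT against -2.24 and -2.55 in EP2KO on slide 1, and -2.69 and -2.20 against -2.56 and -2.12 on slide 2. Nlrc5 was 1.30 and 2.15 against 1.00 and 0.89 on slide 1, and 1.03 and 1.27 against 1.10 and 1.05 on slide 2. Each was below WT without overlap on slide 1 and overlapped on slide 2. The differences were -0.39 ± 0.31 for Ciita and -0.43 ± 0.24 for Nlrc5 (SE, no block). With the slide as a block the SEs were 0.27 and 0.23. A second Nlrc5 probe gave -0.08.

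The genotype difference was also read on each slide alone; no member passed the test of the difference between slides, given further on. EP2KO lay below WT without overlap on slide 1 for 27 of 37 members (32.7% of features) and on slide 2 for 6 (21.5%), while 10 lay above on slide 2 (28.9%). The members' median difference was -0.33 on slide 1 (33 of 37 below 0, against -0.08 and 60.9% over all features) and 0.03 on slide 2 (16 below 0, against 0.04 and 44%). Below WT on slide 1 and above it on slide 2, each without overlap, were 9 members: H2-Ab1, H2-DMa, Ctss, H2-K1, H2-D1, H2-T23, H2-M3, Tap1 and Tapbp. Of all features, 11.5% had that pattern, and the opposite pattern, which 5.56% had, was seen for no member. The sum of the macrophage markers moved with these 9 genes. Their summed signal was 302 and 351 times the 75th percentile in WT against 277 and 297 in EP2KO on slide 1, and 253 and 206 against 287 and 330 on slide 2, so that EP2KO lay below WT on the first and above it on the second. Of the 7 tested markers, 2 had that pattern without overlap themselves (11.5% of features). Adgre1 was higher in EP2KO on both slides (0.20 and 0.46) and Cd14 lower on both (-0.14 and -0.58). The slide 2 difference less the slide 1 difference (the interaction) was above 0 in 6 of the 7 (median 0.67). Of these interactions, 3 were above 0 at an unadjusted p under 0.05 (10.6% of features) and 0 passed after adjustment. Lyz2, the lysozyme of myeloid cells, had 0.91 ± 0.26. Their part in the pattern of the 9 members was not tested.

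**Figure D2:**
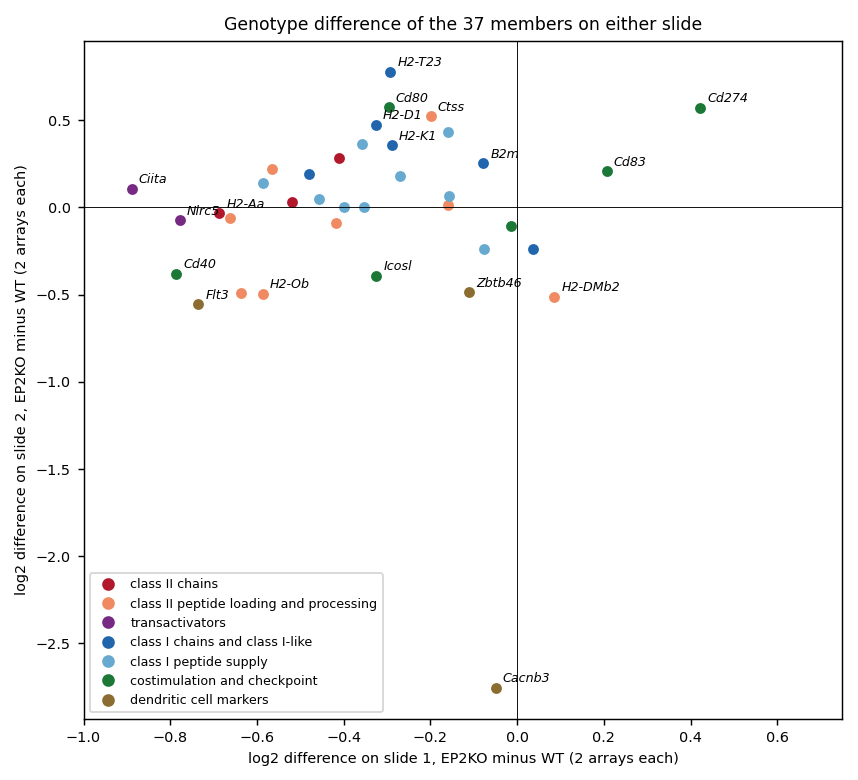
Each point is 1 of the 37 members, coloured by role. The x axis gives the log2 difference EP2KO minus WT on slide 1 and the y axis the same on slide 2, each from 2 arrays a genotype. Most points lie left of 0, the class I chains H2-T23 (-0.29, 0.78), H2-D1 and H2-K1 are at the upper left, and Cacnb3 (-0.05, -2.75) lies far below the rest.

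H2-T23, which encodes the non-classical class I molecule Qa-1, had the largest interaction of the 9. It was 6.06 and 6.23 in WT against 5.83 and 5.88 in EP2KO on slide 1, and 5.84 and 5.72 against 6.42 and 6.69 on slide 2. The slide 2 difference exceeded the slide 1 difference by 1.07 ± 0.20 (unadjusted p 0.00164, adjusted p 0.118). H2-D1, a classical class I heavy chain, was 6.95 and 7.07 against 6.72 and 6.64 on slide 1, and 6.44 and 6.50 against 6.97 and 6.92 on slide 2, an interaction of 0.80 ± 0.16 (adjusted p 0.123). H2-K1, the other classical chain, was 6.94 and 7.12 against 6.74 and 6.74 on slide 1, and 6.42 and 6.41 against 6.74 and 6.81 on slide 2 (0.65 ± 0.17, adjusted p 0.138). In all 3 genes both WT arrays of slide 2 were below those of slide 1, while the EP2KO arrays of slide 2 were level with or above those of slide 1. Class I genes are near copies of each other, so the division of signal between their probes is uncertain.

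No member passed the interaction test, where 3 of 20738 features did (0.0145%). At an unadjusted p under 0.05 there were 11 members (20.9% of features), and the signed difference (EP2KO minus WT) was higher on slide 2 than on slide 1 for 10 of them (10.6%) and lower for Cacnb3 (10.2%; -2.70 ± 0.61, adjusted p 0.124). The 10 were H2-Ab1, Ctss, H2-K1, H2-D1, H2-T23, H2-M3, Tap1, Tapbp, Psmb10 and Cd80. By role they were 4 of the 6 class I chains, 3 of the 9 peptide supply genes, and 1 each of the class II chains, the loading genes and the costimulatory genes. Without WT 1, 1314 features and 4 members passed: Cacnb3 (-3.15), Cd80 (1.20), H2-T23 (1.15) and Nlrc5 (1.13). The interaction of H2-T23 ran from 0.67 to 1.36 over 17 settings, that of H2-D1 from 0.29 to 1.09 and that of H2-K1 from 0.15 to 0.93. The within-slide signs of H2-T23, H2-D1, H2-K1, H2-M3, Tap1, Tapbp, H2-Ab1 and H2-DMa held with all 4 scalings tried, and that of Ctss on slide 1 turned from -0.20 to 0.025 in 1 of them. The median interaction over all features was 0.12 and moved to 0.41 with median scaling. That of the members was 0.41, and became 0.69 with median scaling and 0.16 with quantile normalization, where all features had 0.12. With median scaling 18 members were higher on slide 2 at an unadjusted p under 0.05 (4660 of 20738 features). With quantile normalization 4 were (2368 features). The members' median difference on slide 2 was then 0.31 and -0.09 in turn.

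The second comparison sets slide 2 against slide 1, with the genotype in the model. It describes 2 sets of samples and names no treatment. By an adjusted p under 0.05, 23 of 37 members differed, where 43.5% of all features did. The members lay mainly on 1 side: 20 were lower on slide 2 (19.6% of features) and 3 were higher (23.9%). The members' median difference was -0.51, with 30 of 37 below 0, against 0.03 and 48% over all features. In 22 members the 2 slides did not overlap (20 lower, 2 higher), as in 43.5% of features.

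**Figure D3:**
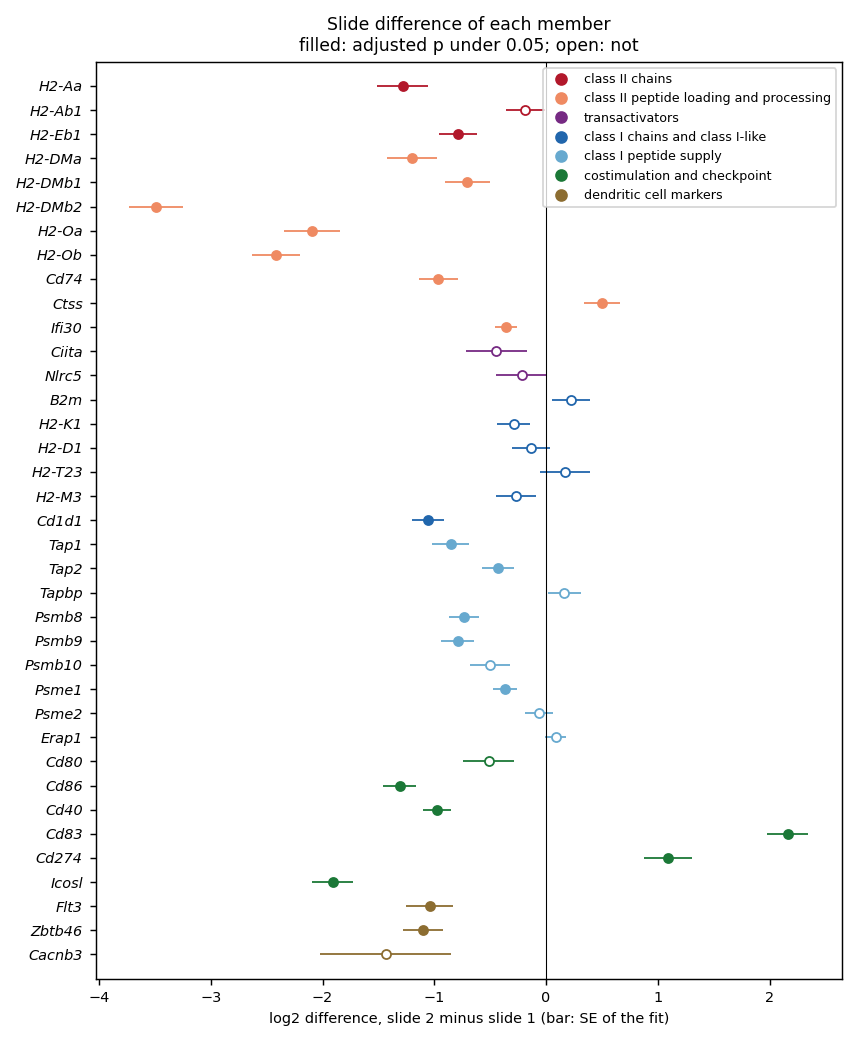
Difference of each member between slide 2 and slide 1 (log2, x axis), with its SE, by role, from 8 arrays with the genotype in the model. Filled circles passed an adjusted p of 0.05. H2-DMb2 (-3.49), H2-Ob, H2-Oa and Icosl were farthest below 0 and Cd83 (2.16) farthest above. Of the 6 class I chains 5 did not pass, where 43.5% of features passed.

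The class II loading genes had the most calls of any role. Of 8, 7 fell on slide 2 (19.6% of features) and 1 rose (23.9%). H2-DMb2, a beta chain of H2-DM, which exchanges peptides on class II molecules, was 0.29 and -0.20 in WT and 0.53 and -0.27 in EP2KO on slide 1, against -3.35, -2.93, -3.77 and -3.54 on slide 2 (values in the order WT then EP2KO, here and below). It fell by 3.49 on the log2 scale (SE 0.24, 11.2-fold, adjusted p 0.000131), and every slide 2 array was far below every slide 1 array. The alpha chain H2-DMa was 3.14 and 3.81 in WT and 3.09 and 2.72 in EP2KO on slide 1, then 1.77, 2.00, 2.10 and 2.10 (2.30-fold lower). H2-DMb1 was 4.47, 5.17, 4.28 and 4.04, then 3.73, 3.91, 3.70 and 3.81 (1.63-fold lower, adjusted p 0.0261). H2-DMb1 and H2-DMb2 are close copies, and the division of signal between their probes is uncertain.

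The 2 chains of H2-O, which inhibits H2-DM and is known mainly from B cells, fell together. H2-Oa was 1.77 and 1.45 in WT and 1.38 and 0.56 in EP2KO on slide 1, and -0.79, -0.32, -1.43 and -0.66 on slide 2 (difference -2.09 ± 0.25, 4.27-fold). H2-Ob, whose levels are given above, differed by -2.42 ± 0.22 (5.34-fold), and by -2.77 on a second probe. Cd74, the invariant chain that holds the class II groove until loading, was 6.89 and 7.04 in WT and 6.71 and 6.38 in EP2KO on slide 1, and 5.52, 6.15, 5.62 and 5.87 on slide 2. It was 1.95-fold lower (-0.96 ± 0.18, adjusted p 0.00475), again without overlap between slides.

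The 2 endosomal enzymes of the group split. Ctss, cathepsin S, which degrades the invariant chain, was 6.36 and 6.45 in WT and 6.20 and 6.21 in EP2KO on slide 1, and 6.66, 6.42, 7.08 and 7.04 on slide 2. It rose by 0.50 ± 0.16 (adjusted p 0.0433), with WT 4 within the range of slide 1. Ifi30, the thiol reductase GILT, was 4.63, 4.68, 4.55 and 4.44 and then 4.26, 4.15, 4.32 and 4.12, a difference of -0.36 ± 0.10 (adjusted p 0.0223).

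Of the class II chains themselves, 2 of 3 fell (19.6% of features). H2-Aa was 5.08 and 5.79 in WT and 4.97 and 4.53 in EP2KO on slide 1, and 3.64, 4.01, 3.70 and 3.88 on slide 2 (-1.28 ± 0.23, 2.43-fold, adjusted p 0.00432). H2-Eb1 was 7.08, 7.35, 6.86 and 6.54, then 5.95, 6.36, 6.12 and 6.25 (-0.79 ± 0.17, 1.73-fold, adjusted p 0.00968). H2-Ab1 was 6.69, 6.93, 6.40 and 6.40, then 6.17, 6.39, 6.41 and 6.71, and the slides overlapped (-0.18 ± 0.17, adjusted p 0.419). Its second probe gave -0.06. Ciita and Nlrc5 did not pass either (-0.45 ± 0.27 and -0.22 ± 0.23). A second Nlrc5 probe gave 0.27.

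Markers of B cells, which also carry class II, H2-O and Cd74, moved with these genes. All 10 listed had a probe well above background on all 8 arrays, so none was at 0. Their summed signal was 71.8 to 119 times the 75th percentile on slide 1 and 7.02 to 15.7 on slide 2. Of all features 19.6% fell and 23.9% rose between slides, while 9 of these 10 markers fell (Ms4a1 -3.71, Blk -3.23, Cd79b -3.21 and Fcrla -3.18, log2). Their part in the class II differences was not tested. The macrophage list summed to 277 to 351 on slide 1 and 206 to 330 on slide 2, with 1 of 7 genes higher and 2 lower. Conventional dendritic cell markers, 9 of 10 with a probe and Xcr1 well above background on 3 arrays, summed to 34.9 to 43.5 on slide 1 and 42.8 to 53.7 on slide 2, with 1 of 8 tested genes higher and 4 lower. Plasmacytoid dendritic cell markers, 5 of 5 with a probe, summed to 29.6 to 38.7 and 33.1 to 56.3, with 1 lower.

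**Figure D4:**
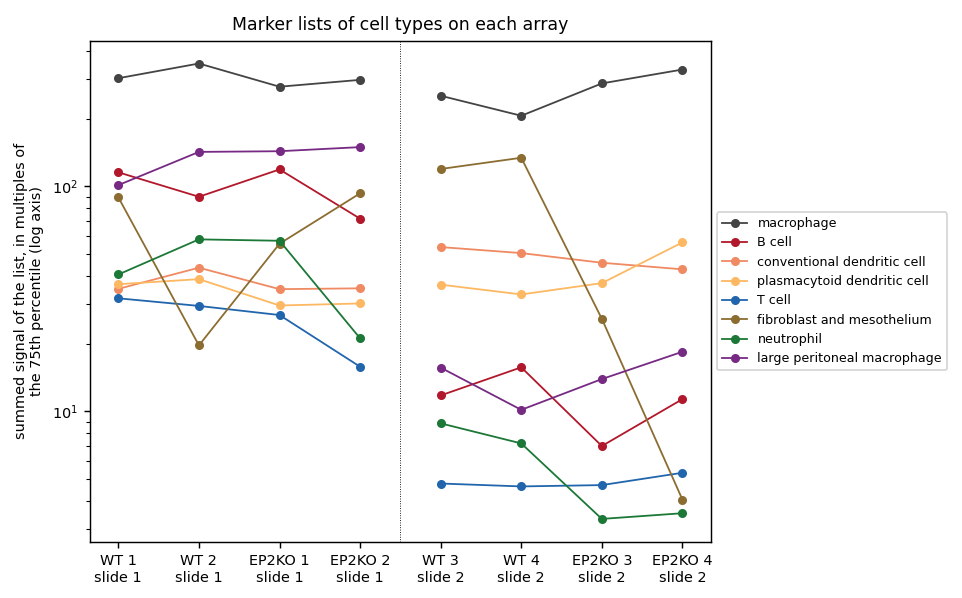
Summed signal of 8 marker lists on each array, in multiples of the array's 75th percentile (log axis), with slide 1 left of the dotted line and slide 2 right of it. B-cell, T-cell, neutrophil and large peritoneal macrophage lists were lower on all 4 arrays of slide 2, the macrophage and dendritic cell lists overlapped between slides, and the fibroblast and mesothelium list varied within slides.

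The lists of T cells, neutrophils and large peritoneal macrophages were lower on slide 2 as well, where 19.6% of all features were lower. T-cell markers, 7 of 8 with a probe and 6 of those lower, summed to 15.8 to 31.8 on slide 1 and 4.64 to 5.34 on slide 2. Neutrophil markers, 4 of 5 and all 4 lower, summed to 21.1 to 58.1 and then 3.33 to 8.85. Markers of large peritoneal macrophages, 6 of 6 and all 6 lower, summed to 101 to 149 and then 10.2 to 18.4. Their part in the slide differences was not tested.

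The classical class I chains and their light chain did not pass between slides. The differences were -0.29 ± 0.15 for H2-K1, -0.14 ± 0.17 for H2-D1, 0.17 ± 0.23 for H2-T23, -0.27 ± 0.18 for H2-M3, which presents formylated peptides, and 0.22 ± 0.17 for B2m, beta-2 microglobulin. B2m was 6.16 and 6.33 in WT and 6.37 and 5.98 in EP2KO on slide 1, and 6.35, 6.26, 6.85 and 6.26 on slide 2. Cd1d1, a class I-like molecule that presents lipids to NKT cells, was the exception of the 6. It was 0.88, 1.13, 1.10 and 0.98, then 0.04, 0.13, -0.39 and 0.09 (-1.05 ± 0.14, 2.08-fold lower, adjusted p 0.00135), and a second probe gave -0.87.

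Class I peptide supply fell in 5 of 9 genes (19.6% of features) and rose in none (23.9%). Tap1, a subunit of the peptide transporter, was -0.09, 0.04, -0.26 and -0.50 on slide 1 (WT 1, WT 2, EP2KO 1, EP2KO 2) and -1.21, -1.27, -0.85 and -0.89 on slide 2 (WT 3, WT 4, EP2KO 3, EP2KO 4), a difference of -0.85 ± 0.17. In that order its partner Tap2 was 4.02, 4.09, 3.91 and 3.66, then 3.24, 3.56, 3.67 and 3.50 (-0.43 ± 0.14). Psmb8, an immunoproteasome subunit, was 4.09, 4.24, 3.88 and 3.65, then 3.31, 3.15, 3.12 and 3.34 (-0.73 ± 0.13, 1.66-fold lower). Psmb9, a second such subunit, was 3.55, 3.76, 3.32 and 3.07, then 2.68, 2.54, 2.53 and 2.79 (-0.79 ± 0.15, 1.73-fold lower). The third, Psmb10, missed the threshold (-0.50 ± 0.18, adjusted p 0.0612). Psme1, a subunit of the interferon-inducible PA28 activator, was 4.06, 4.16, 3.82 and 3.69, then 3.55, 3.58, 3.55 and 3.58 (-0.36 ± 0.11), while its partner Psme2 was -0.06 ± 0.12. A second Psme2 probe gave -0.27. Tapbp, tapasin, which edits class I peptides, and Erap1, which trims them, were at 0.16 ± 0.15 and 0.09 ± 0.09.

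Costimulatory and checkpoint genes split into 3 that fell (19.6% of features), 2 that rose (23.9%) and 1 that did not pass. Icosl was 0.66, 0.86, 0.42 and 0.44 on slide 1 and -1.25, -0.98, -1.92 and -1.10 on slide 2, in the same order (-1.91 ± 0.18, 3.76-fold lower). Cd86 was 2.48-fold lower (-1.31 ± 0.15, adjusted p 0.000651) and Cd40 1.97-fold lower (-0.98 ± 0.13, adjusted p 0.00111). Cd80 was -0.51 ± 0.23 (adjusted p 0.109). Cd83 went the other way: 2.51, 1.85, 2.24 and 2.53, then 4.56, 4.12, 4.70 and 4.39 (2.16 ± 0.19, 4.48-fold higher, adjusted p 0.000256). Cd274 was 2.13-fold higher (1.09 ± 0.22, adjusted p 0.00679), and its lowest slide 2 array, WT 3, lay just above the highest of slide 1.

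**Figure D5:**
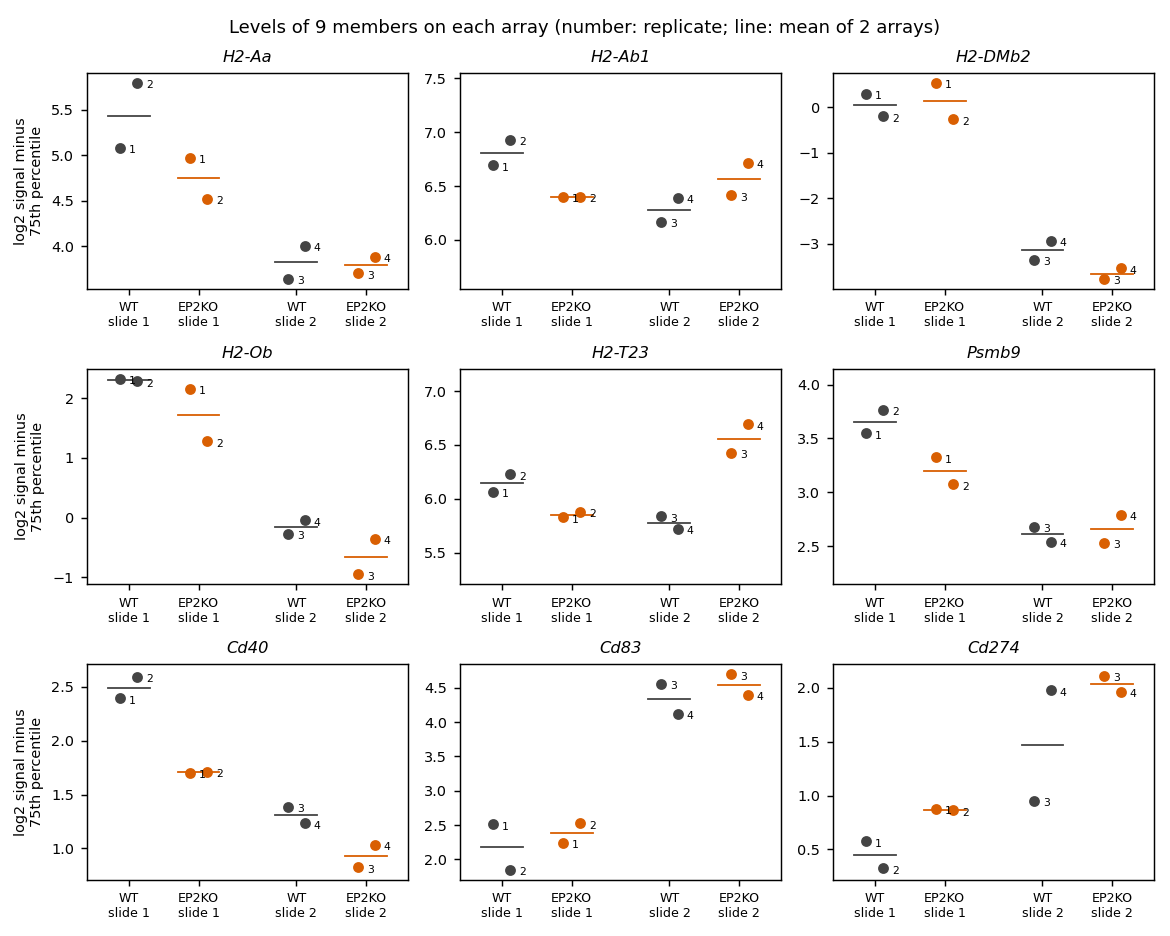
Levels of 9 members on each array (log2 signal minus the array's 75th percentile; the y range differs between panels). Points are arrays, numbers are replicates and lines are means of 2 arrays. H2-Aa, H2-DMb2, H2-Ob, Psmb9 and Cd40 were lower on slide 2, Cd83 and Cd274 were higher, H2-Ab1 and H2-T23 overlapped between slides, and EP2KO lay below WT for Cd40 on either slide.

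Of the 3 dendritic cell markers among the members, 2 passed as lower on slide 2 (19.6% of features). Flt3 differed by -1.04 ± 0.21 (adjusted p 0.00727), with -0.36 on a second probe that was well above background on 7 arrays. Zbtb46 was -4.41, -4.31, -4.50 and -4.45 on slide 1 and -4.92, -5.63, -5.60 and -5.93 on slide 2 (-1.10 ± 0.18, adjusted p 0.0032), but with a normexp background correction its difference was 0.025. Cacnb3 did not pass (-1.44 ± 0.59, adjusted p 0.086), though without WT 2 it did (-1.88, adjusted p 0.0277).

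Of the 23 calls between slides, 17 held in all 18 settings tried: H2-Aa, H2-Eb1, H2-DMa, H2-DMb2, H2-Oa, H2-Ob, Cd74, Cd1d1, Tap1, Psmb8, Psmb9, Cd86, Cd40, Cd83, Cd274, Icosl and Flt3. Zbtb46 lost its call with normexp and with no array left out. The other 5 were lost with normexp, with median scaling and with no filter on dim probes (Tap2 also with array weights), and with single arrays left out. Ctss lost its call without WT 1, WT 3 or any EP2KO array (0.42 to 0.55, adjusted p 0.0642 to 0.123). H2-DMb1 lost it without WT 3, WT 4, EP2KO 1 or EP2KO 3 (-0.74 to -0.61, adjusted p 0.0539 to 0.0669). Ifi30 lost it without WT 1, WT 4, EP2KO 1 or EP2KO 4 (-0.35 to -0.32, adjusted p 0.0519 to 0.0691). Tap2 lost it without any WT array, EP2KO 1 or EP2KO 4 (-0.45 to -0.32, adjusted p 0.0798 to 0.115), and Psme1 without any WT array, EP2KO 1 or EP2KO 3 (-0.39 to -0.31, adjusted p 0.0568 to 0.0810). Psmb10, in turn, gained a call without EP2KO 4 (-0.62, adjusted p 0.0418) and with quantile normalization.

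Of 62 further genes of the same pathways, 55 were tested. None passed between genotypes in any of the 3 fits. With the slide as a block 3 of the 55 had an unadjusted p under 0.05, where 7.33% of all features did. Higher in EP2KO were Ctsd, an aspartic protease of the endosome (0.31), and Cd9, a tetraspanin found with class II (0.53). Tnfsf9, the ligand of 4-1BB (-0.41), was lower. The list's median difference was 0.03, with 30 genes above 0. Between slides 13 rose (23.9% of features) and 14 fell (19.6%), so these genes did not lie on 1 side as the members did.

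The class II processing genes rose on slide 2, in contrast to the class II loading genes, 6 of 9 passing upward and 1 downward. Of all features 23.9% passed upward and 19.6% downward, beside which this list and those below are to be read. Ctsd rose by 0.89 ± 0.10, Ctsl, cathepsin L, by 1.29 ± 0.14, Cd63, a tetraspanin of late endosomes, by 1.70 ± 0.22 and Cd9 by 1.11 ± 0.21. Among 16 regulators 0 rose and 6 fell, with Irf4, a factor of activated B cells and dendritic cells, at -1.47 ± 0.16 and Rfx5, a subunit of the X box factor, at -0.71 ± 0.14. Of 8 other class I and loading genes 3 fell, including H2-Q4 (-0.95 ± 0.16) and Tapbpl, a relative of tapasin (-0.70 ± 0.15). Of the 6 constitutive proteasome genes 2 rose and none fell. Those that rose were Psme3, at 1.40 ± 0.14, and Psmb6, replaced by Psmb9 in the immunoproteasome, at 1.06 ± 0.13. Psmb5 and Psmb7, replaced there by Psmb8 and Psmb10, were at 0.09 ± 0.12 and -0.02 ± 0.12. Of the 16 other costimulatory, adhesion and checkpoint genes 5 rose and 4 fell.

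In the interaction test, none of the 55 passed. At an unadjusted p under 0.05 the signed difference was higher on slide 2 for 15 (10.6% of features) and lower for 3 (10.2%). Class I genes outside the members had like values: H2-T24 differed by -0.35 on slide 1 and 0.89 on slide 2 (interaction 1.24 ± 0.16), H2-Q10 by -0.30 and 0.78 (1.08 ± 0.19) and H2-Q4 by -0.56 and 0.14 (0.70 ± 0.17). The values of H2-Q10 were close to those of H2-T23, and whether the 2 probes share signal was not tested. Ifngr1, a chain of the interferon gamma receptor, was at -0.69 and 0.21 (0.90 ± 0.19).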

How the data were processed

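Each array was scanned in 1 colour and, per the file headers, the deposited intensity values were extracted with Agilent Feature Extraction 10.7.1.1 (the submitters' processing notes name 9.1), which subtracted the background within each array and did not scale between arrays. The deposited series table holds the same processed intensity for each array, unlogged and uncentred (largest log2 difference 0, column medians 52.6 to 96.9), so it was not used as a separate alternative.

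From these values log2 of the processed signal minus each array's 75th percentile was computed. Of 44397 spots, 1377 control spots and flagged outliers were left out and spots of a probe were averaged. Probes were named by matching the design's transcript accession to RefSeq (27508 named, 11921 not), and symbols of the array design's time were updated in that way. The filter kept probes that all 4 arrays of WT or all 4 of EP2KO measured well above background, and the brightest kept probe stood for its gene. For 9 members with 2 kept probes, disagreements in sign are given beside the values, and differences in size for some of them only. The array number limits the precision: 4 arrays a genotype, 2 of them on each slide.

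Differences were tested two-sided with limma 3.58.1 (R 4.3.3; lmFit and eBayes) on all 20738 features, with Benjamini-Hochberg adjustment at 0.05. The fits were genotype alone, slide with genotype as a covariate, and their interaction. The scripts were tested on simulated data. Same-numbered WT and EP2KO arrays, which also share a slide, deviated together from their group means (r = 0.74, 0.12, 0.55 and 0.43 for replicates 1 to 4). The group means span both slides and r was taken for same-numbered arrays only. These values therefore cannot tell pairing by number from the shared slide. A fit with the replicate block stands beside the others. Alternatives were background correction (normexp, offset 50, on median spot signal), scaling, filter, probe choice, eBayes options, array weights, blocks, each slide alone and each array left out.

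All members may be named. Of the other pathway and marker lists, up to 4 genes a list with the smallest p in the slide-blocked fit are named. Psmb6 was added to these after its value was seen. Levels per array are given for members that passed a test or whose genotypes did not overlap, and for H2-Ab1, H2-Eb1, Cd74, Cd40, Cd80, Cd86, Cd274 and Ptger2 in any case. Those of Ciita, Nlrc5, B2m, Cacnb3, H2-T23, H2-D1 and H2-K1 were added after their values were seen, as were the slide-blocked and within-slide fits under other settings. The members and lists were chosen with earlier results of these data known.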

Additional observations from a re-analysis of the deposited data

Results flagged for a closer look

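In 74 groups of 4 arrays (37 members in WT and in EP2KO), 3 held an array far from the other 3 by Dixon's ratio, the gap to the nearest array divided by the group's range, and passed its critical value. Chance flags about 1 group in 20, or 3.7 of 74, so this is near the number that chance gives. H2-Ab1 was 6.71 on EP2KO 4 and 6.40 to 6.41 on the other EP2KO arrays (ratio 0.958). H2-K1 was 6.81 on EP2KO 4 and 6.74 on the others (ratio 0.973). Psmb10 was 4.27 on EP2KO 3 and 4.50 to 4.52 on the others (ratio 0.902).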

How the results depend on the processing

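No member passed between genotypes in any setting run, and the members' median difference ran from -0.33 to 0.03 over the planned settings, with 0.31 within slide 2 under median scaling. The count of features called between genotypes was 2, and became 4 with array weights or under a fixed or random slide block, and 0 under the replicate block, which changed no member's call. It was 0 within slide 1 and 232 within slide 2. Each array left out in turn gave 0 to 4, with or without the slide block. Of the settings chosen after seeing the data, the slide block with median scaling gave 7, slide 1 alone gave 0 with normexp, median scaling and quantile normalization, and slide 2 alone gave 0, 151 and 8. Between slides, the 9024 calls fell to 3533 with normexp, which also turned Zbtb46 from -1.10 to 0.025. Members called ranged from 17 to 24. For the interaction, the 3 calls became 0 with normexp, 5 with median scaling, 1 without the filter on dim probes, 8 with the trend and robust options and 1 with array weights, and each array left out in turn gave 0 to 1314, with 0 to 4 members called. The cause was not tested. With 2 arrays a genotype on each slide, replication limits the within-slide values.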

Other observations

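Of the genes named in the lists for other cell types, Dpp4, a peptidase found on some dendritic cells and T cells, was -0.41 on slide 1 and -1.17 on slide 2 in EP2KO against WT (-0.79 ± 0.21 adjusted p 0.362 in the slide-blocked fit), and Ccr9, a chemokine receptor of plasmacytoid dendritic cells, was -0.62 and -0.46 (adjusted p 0.318). Ccr7, the receptor that guides activated dendritic cells and lymphocytes to lymph nodes, was lower on slide 2 (-3.16 ± 0.23), where Cd83, another gene of activated dendritic cells, was higher. Of the large peritoneal macrophage genes, Ltbp1 differed by 3.02 on slide 1 and 2.92 on slide 2, higher in EP2KO (slide-blocked adjusted p 0.140), and Selp 1.95 and 1.53 (adjusted p 0.0847).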
